A study of Homo sapiens with 8 samples.

Results

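The RUNX genes encode the DNA-binding subunits of the core binding factors, and this account follows the chromatin proteins NIPBL, SMC1A and MED1 around the 3 human members, RUNX1, RUNX2 and RUNX3. The members of the set are called ChIP-seq peaks chosen by position alone: every peak that overlapped a fixed window of the hg19 build around RUNX3 (chr1:25190000-25400000, 210.001 kb), RUNX1 (chr21:36120000-36480000, 360.001 kb) or RUNX2 (chr6:45260000-45560000, 300.001 kb). These windows held 271 of the 224694 peaks in the series, of which 194 lay at RUNX3, 61 at RUNX1 and 16 at RUNX2. The rule uses position and no measured value, but the genes were picked with earlier results of these data known.

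The data came from GM12878, an established lymphoblastoid cell line made from B lymphocytes, grown without treatment and with no genetic change between groups. Each protein was immunoprecipitated from crosslinked chromatin in 2 replicate libraries, and 2 whole cell extract libraries were pooled as the control of all 6 peak lists. Whether the replicates were separate cultures is not said in the labels, so p-values here measure the spread between libraries, which may be technical. The lists hold no RNA measurement, so the levels of the RUNX transcripts in these cells were not tested here.

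RUNX proteins bind DNA through a conserved Runt domain, together with the partner CBFB, and either raise or lower transcription of their targets. RUNX1 is needed for definitive blood formation, RUNX2 for bone formation, and RUNX3 acts in T cells, B cells and sensory neurons. Lymphoblastoid cells are known to express RUNX3, which the viral factor EBNA2 induces through distal enhancers and which in turn holds RUNX1 low. NIPBL loads cohesin onto DNA, SMC1A belongs to the ring of cohesin itself, which forms chromatin loops and gathers at CTCF sites, and MED1 is a subunit of Mediator, which links enhancer-bound factors to RNA polymerase II.

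Each RUNX gene has a distal and a proximal promoter. They are shown because the windows were placed around these genes and because RUNX proteins can bind the promoters of their own family. The sequences are RefSeq promoter entries of the GRCh38.p14 build, which is not the build of the peaks, so no peak was set against them. The letters ACCACA, a core that RUNX proteins recognise, are in capitals where they occur on the printed strand. The 250 bases before the distal RUNX3 start (chr1:24965011-24965260, minus strand), before a second RUNX3 start (chr1:24930277-24930526, minus strand) and before the RUNX1 start in the table (chr21:34888700-34888949, minus strand) read as follows.
RUNX3 distal: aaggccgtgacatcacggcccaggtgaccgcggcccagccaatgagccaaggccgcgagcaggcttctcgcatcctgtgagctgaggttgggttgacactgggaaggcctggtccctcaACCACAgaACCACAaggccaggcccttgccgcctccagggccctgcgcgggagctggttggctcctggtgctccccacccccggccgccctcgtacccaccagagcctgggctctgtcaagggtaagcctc
RUNX3 second: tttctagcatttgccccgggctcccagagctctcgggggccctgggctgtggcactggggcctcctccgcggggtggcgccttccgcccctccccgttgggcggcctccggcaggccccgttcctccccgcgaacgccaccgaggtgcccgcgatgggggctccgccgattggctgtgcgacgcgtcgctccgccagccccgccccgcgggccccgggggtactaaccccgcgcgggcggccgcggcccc
RUNX1: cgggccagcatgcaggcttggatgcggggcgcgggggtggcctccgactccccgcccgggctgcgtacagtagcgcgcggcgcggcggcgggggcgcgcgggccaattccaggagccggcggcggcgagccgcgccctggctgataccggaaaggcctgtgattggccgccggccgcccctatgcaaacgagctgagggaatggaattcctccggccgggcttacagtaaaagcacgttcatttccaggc
The distal RUNX3 entry holds ACCACA as a tandem pair on one strand, 131 bp before the start, and an entry of RUNX2 holds a pair 16 bp after its start. The 30 bases around each pair can be compared letter by letter, with the core in capitals.
RUNX3 pair: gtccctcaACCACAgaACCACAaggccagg
RUNX2 pair: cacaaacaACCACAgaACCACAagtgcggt
Both pairs are separated by the same 2 letters. On either strand, ACCACA occurred at least once in 4591 of 35116 promoter entries of 300 bases (13.1%), and a tandem pair with starts at most 10 bases apart occurred in 16 entries (0.0456%). The other RUNX3, RUNX2 and RUNX1 entries held no ACCACA on either strand. A match is a description of letters and not evidence of binding.

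RUNX3 carried far more called binding of all 3 proteins than RUNX1, and RUNX1 more than RUNX2. Peaks covered 7.46% and 5.46% of the RUNX3 window in NIPBL replicates 1 and 2, 7.54% and 11.2% in SMC1A, and 8.92% and 19.96% in MED1. At RUNX1 the covered share was 1.09% and 0.775% for NIPBL, 1.78% and 1.95% for SMC1A, and 0.147% and 0.910% for MED1. At RUNX2 it was 0.0667% and 0% for NIPBL, 0.629% and 1.03% for SMC1A, and 0.0810% and 0.468% for MED1. The lowest RUNX3 value therefore lay above the highest value at either other gene.

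**Figure D1:**
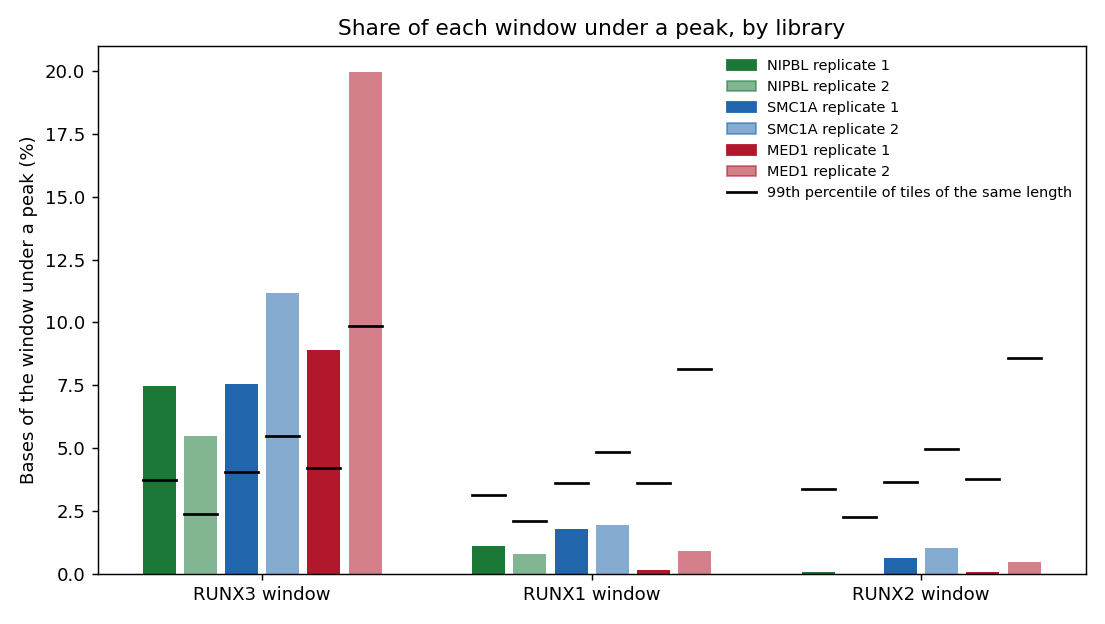
Percent of the bases of each window that lay under a peak (vertical axis), 1 bar per library, with the 99th percentile of genome tiles of the same length as black lines. All 6 bars at RUNX3 stand above their line, and all bars at RUNX1 and RUNX2 stand below it.

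The order held in each library. The covered share was higher at RUNX3 than at RUNX1 by 8.98 percentage points on average and than at RUNX2 by 9.71 points, in 6 of 6 libraries each time. RUNX1 stood above RUNX2 by 0.729 points, also in 6 of 6 libraries. Flipping the sign of each library's difference in an exact permutation test (two-sided) gave p = 0.03125 for each of these 3 differences, and p = 0.03125 after Benjamini-Hochberg adjustment over the 3, which is the smallest p that 6 libraries allow. The test takes the 6 libraries as independent, although they share a control and a pair of them shares each antibody. With each list kept to its 15357 peaks of highest fold, the 3 differences were smaller, at 5.69, 6.10 and 0.414 points, with the same p. RUNX1 against RUNX2 missed the threshold when only peaks with −log10 q of at least 5 were kept (0.506 points, p = 0.0625 by the same exact test). Peaks of MED1 replicate 2 then covered a larger share of the RUNX2 window than of the RUNX1 window.

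The RUNX3 window was set beside all tiles of the same length along the genome, as a description, since the window was placed around a gene and tiles were not. Of 13990 tiles, the share covered at least as much as RUNX3 came to 0.150% and 0.0858% in the NIPBL libraries, 0.0572% and 0.0143% in the SMC1A libraries, and 0.172% and 0.0858% in the MED1 libraries. In the second SMC1A library that share is 2 tiles. For RUNX1, of 8155 tiles, 7.05% and 6.55% of tiles were covered at least as much in NIPBL, 9.47% and 13.2% in SMC1A, and 32.1% and 28.1% in MED1. Among all tiles, RUNX1 thus lay in the upper part for NIPBL and SMC1A and closer to the middle for MED1. Many of these tiles were empty, and only 46.1% and 64.1% held any peak of MED1 replicates 1 and 2. For RUNX2, of 9791 tiles, the share covered at least as much was 48.6% and 100% for NIPBL, whose second list has no peak there. It was 42.9% and 31.4% for SMC1A, and 38.3% and 38.6% for MED1. Tiles with any peak made up 48.7% for NIPBL replicate 1, and 42.3% and 60.9% for MED1. Nearly every tile with a peak of NIPBL replicate 1 was thus covered at least as much as RUNX2.

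Whether the excess at RUNX3 over RUNX1 differed between the proteins could not be settled with 2 libraries each. The ratio of covered shares, RUNX3 over RUNX1, was 6.87 and 7.05 for NIPBL, 4.24 and 5.72 for SMC1A, and 60.6 and 21.9 for MED1. By geometric means over replicates, the MED1 ratio was 7.40 times the SMC1A ratio, a difference of 2.89 on the log2 scale, and 5.24 times the NIPBL ratio. The MED1 libraries did not overlap with the others, but 2 libraries against 2 cannot go below p = 0.333 in an exact two-sided permutation test, which is the value found for all 3 protein pairs before and after adjustment. The ratios compare bases under separately called peaks. The first MED1 ratio rests on 2 peaks with 530 bp at RUNX1, and its list held 18131 peaks against 45046 in the second.

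Within a window, which protein covered most was not settled. At RUNX3 the mean covered share was 14.4% ± 7.81 (SD, n = 2) for MED1, 9.36% ± 2.58 (SD, n = 2) for SMC1A and 6.46% ± 1.41 (SD, n = 2) for NIPBL. MED1 minus SMC1A was 5.08 points (exact permutation p = 0.667), and without MED1 replicate 2 it turned to −0.439. With each list kept to its 15357 peaks of highest fold it was 11.3 points (exact permutation p = 0.333). At RUNX1 the order was SMC1A with 1.87% ± 0.124 (SD, n = 2), NIPBL with 0.931% ± 0.220 and MED1 with 0.528% ± 0.539, and MED1 minus SMC1A was −1.34 points (exact permutation p = 0.333, adjusted 0.5). With equal numbers of top peaks it was −0.263 at RUNX1 and −0.109 at RUNX2. At RUNX2 MED1 minus SMC1A was −0.555 points (exact permutation p = 0.333, adjusted 0.5), from 0.274% ± 0.274 for MED1 and 0.829% ± 0.284 for SMC1A, with NIPBL at 0.0333% ± 0.0471 (SD, n = 2).

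**Figure D2:**
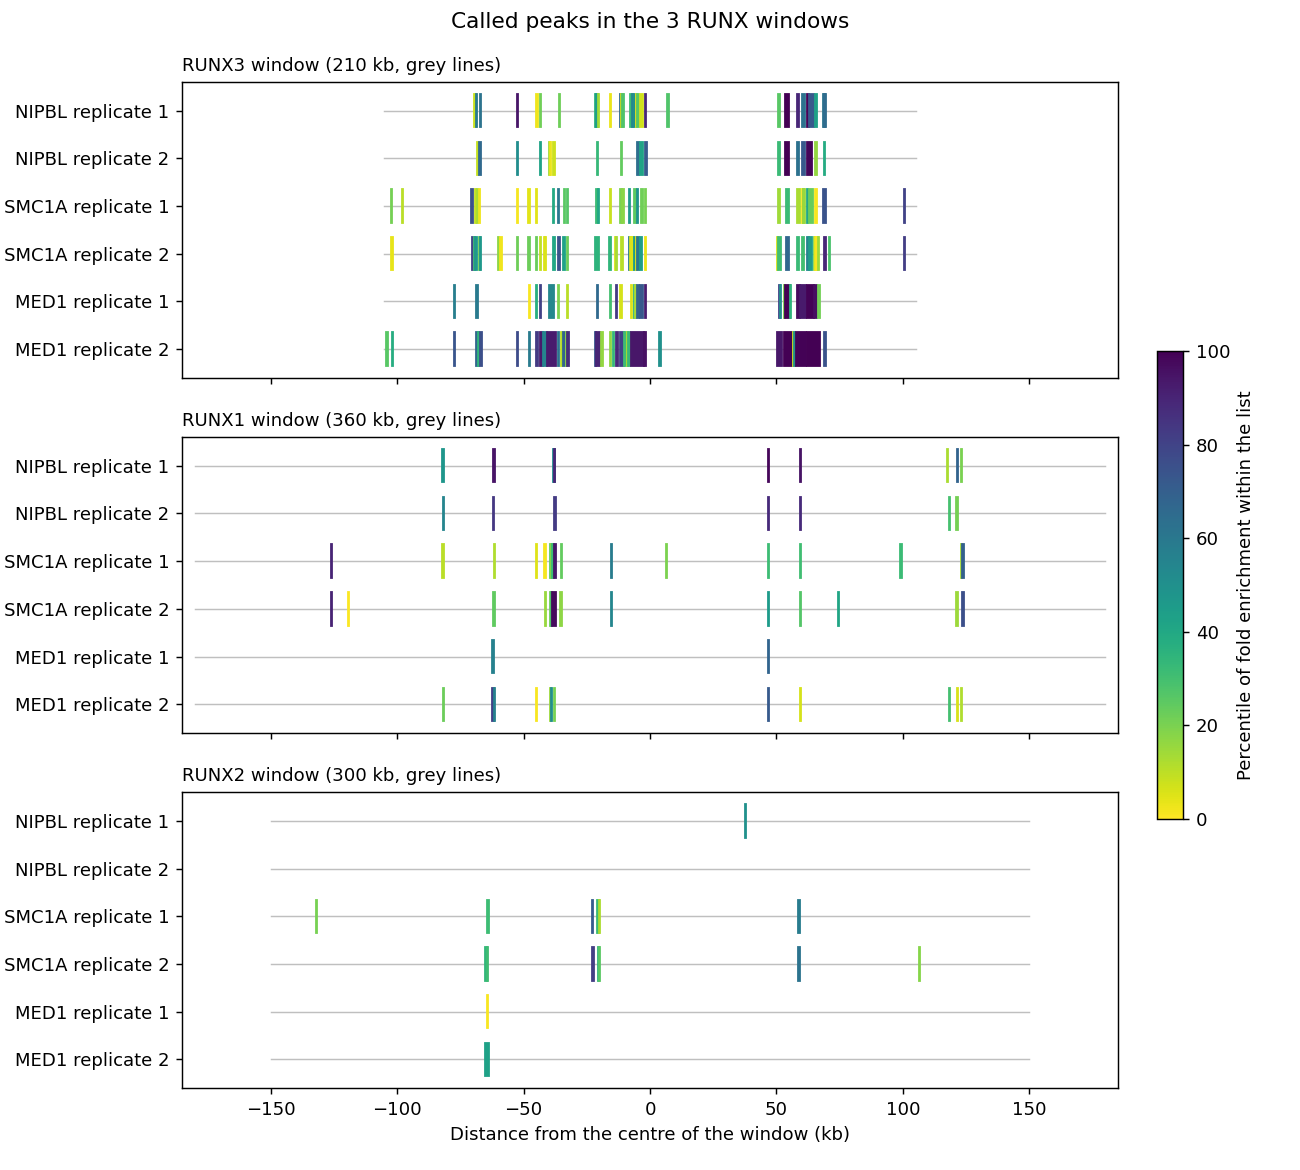
Peaks of each library (rows) in the 3 windows by distance from the centre of the window in kb, coloured by the percentile of the peak's fold enrichment within its own list, from yellow (weak) to dark purple (strong). Peaks narrower than 0.5 kb are drawn 0.5 kb wide. The RUNX3 peaks fall in a wide group and, after 43.0 kb free of peaks in all 6 libraries, a narrow, dark group on the right.

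At RUNX3 the 6 lists held 31 and 19 peaks for NIPBL, 34 and 45 for SMC1A, and 28 and 37 for MED1. Overlapping peaks of all libraries were merged into 44 elements. Of these, 9 were called in all 6 libraries, 8 in 5, 2 in 4, 2 in 3, 5 in 2 and 18 in 1 library. Of the last, 12 were seen in MED1 replicate 2 alone. Such counts over the whole lists are not given here. Those in this window, and at RUNX1 and RUNX2 below, are thus not shown to be particular to any of these genes. The RUNX3 elements were gathered in 4 clusters, in which neighbours lie at most 12.5 kb apart, and 2 of these clusters, with 31 and 8 elements, held nearly all of them.

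The highest NIPBL and MED1 folds lay in the smaller of these, a cluster of 20.8 kb and 8 elements (chr1:25345258-25366026). RUNX3 is read toward lower coordinates, and the cluster is on the side of the higher ones. Of the window's bases under a NIPBL peak it held 48.7% and 59.2%, and of those under a MED1 peak 55.8% and 37.5%. Peaks covered 36.7% and 32.7% of the cluster in NIPBL, 32.7% and 40.3% in SMC1A, and 50.3% and 75.7% in MED1. Clusters were also built the same way for each protein alone, from its regions found in both replicates. Those inside the 20.8 kb spanned 18.8 kb for NIPBL, 18.9 kb for SMC1A and 16.8 kb for MED1. Among all such clusters of the genome they ranked, by covered bases, 27 of 7439 for NIPBL, 59 of 33146 for SMC1A and 76 of 9228 for MED1.

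Fold enrichment is the authors' value for a peak, the signal at its summit over the local control, and is used here to rank peaks within a list. The element at chr1:25347774-25351011 had the highest NIPBL folds of the 3 windows, 13.0 and 13.4, which rank 37 of 21422 and 15 of 15357. Its MED1 folds of 19.7 and 41.0 rank 49 of 18131 and 30 of 45046. Its SMC1A folds were 5.48 and 12.8, at ranks 38587 of 56510 and 22468 of 68228. The same element was thus among the strongest peaks of the genome for NIPBL and MED1 and below the middle of one SMC1A list. The summits held 97 and 85 fragments in NIPBL, 149 and 245 in MED1, and 56 and 75 in SMC1A.

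Its neighbours also stood higher in the NIPBL and MED1 lists than in the SMC1A lists. The element at chr1:25356927-25362010 (5084 bp) had NIPBL folds of 9.94 and 9.01 (ranks 192 and 232), MED1 folds of 16.6 and 35.3 (ranks 83 and 73) and SMC1A folds of 6.64 and 8.83 (ranks 33626 and 30415). Its NIPBL peak of 2025 bp in replicate 2 was the seventh widest of that list. The element at chr1:25352644-25356786 had NIPBL folds of 5.91 and 4.83, MED1 folds of 9.23 and 26.8 and SMC1A folds of 3.96 and 5.06, which are at percentile 89.3 and 72.6, 97.0 and 99.5, and 15.4 and 32.4 of their lists. The highest SMC1A folds of the cluster, 15.9 and 24.5 (percentiles 74.2 and 89.2), were at its edge, at chr1:25363584-25364654. There NIPBL was at 4.34 and 3.78 (percentiles 65.2 and 39.0), MED1 was at 6.59 in replicate 2 (percentile 74.3), and MED1 replicate 1 had no peak. In SMC1A replicate 1, elements elsewhere in the window reached higher, at 16.4 and 18.3.

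**Figure D3:**
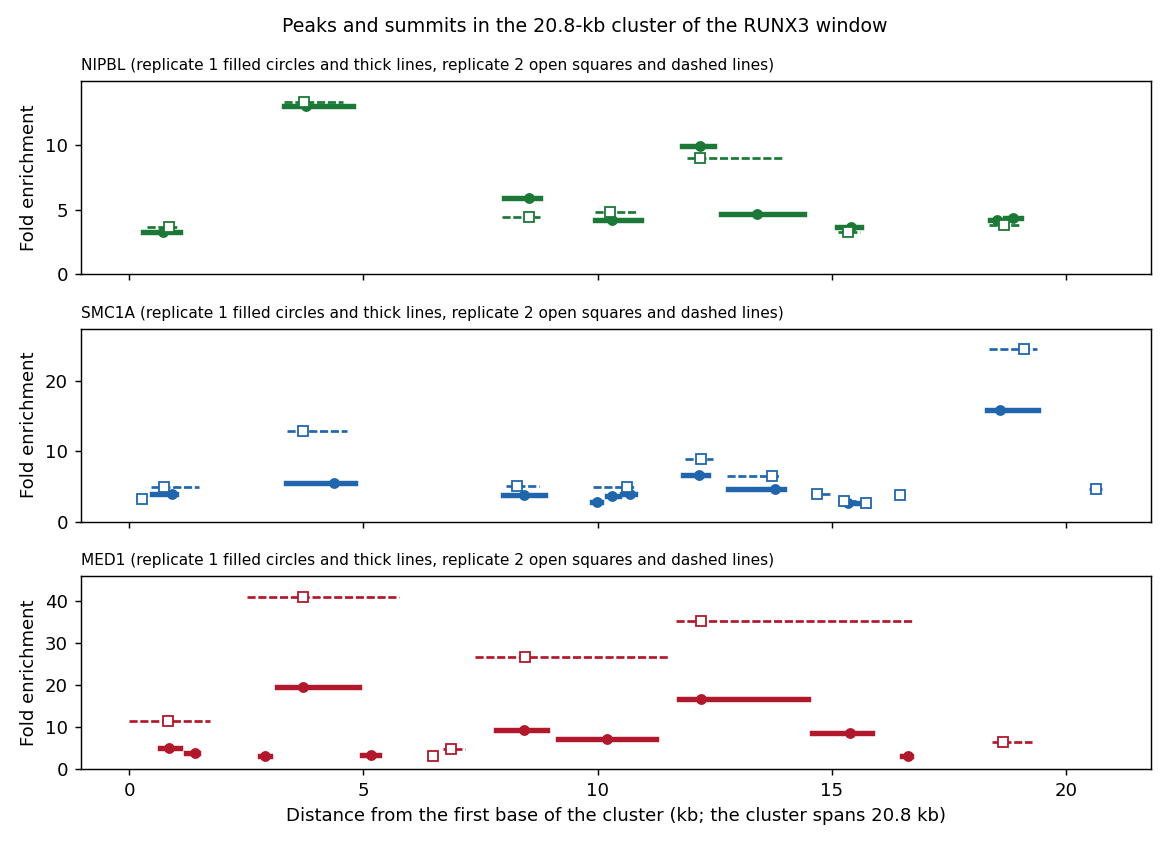
Fold enrichment of each peak (vertical axis, own scale per protein) against distance in kb from the first base of the 20.8-kb RUNX3 cluster. Lines span the peak and symbols mark its summit. NIPBL and MED1 are highest near the same 2 summits, and the highest SMC1A peak lies at the right edge, where MED1 replicate 1 has none.

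The larger RUNX3 cluster spanned 84.9 kb (chr1:25217395-25302249) with 31 elements, 5 of them in all 6 libraries. Its binding was weaker in NIPBL, with a highest fold of 6.89 and 4.81, and it covered 9.47% and 5.52% of the cluster. MED1 covered 9.76% and 30.2% and SMC1A 9.65% and 16.9%. Most of it formed an SMC1A cluster of 51.2 kb with 15 regions, which ranked 15 of 33146 in the genome, and a MED1 cluster of 46.6 kb with 12 regions, which ranked 42 of 9228. The best NIPBL cluster there held 5 regions and ranked 205 of 7439.

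Of the named elements in that cluster, chr1:25292676-25293562 had NIPBL folds of 5.91 and 4.81, SMC1A folds of 4.38 and 2.95 and MED1 folds of 6.79 and 13.3. The widest element of the 3 windows, chr1:25286494-25292466 (5973 bp), had NIPBL folds of 3.97 and 4.51, SMC1A folds of 8.44 and 10.8 and MED1 folds of 4.63 and 11.5. The element at chr1:25273238-25275147 had NIPBL folds of 3.73 and 3.65, SMC1A folds of 6.66 and 5.32 and MED1 folds of 4.32 and 9.62. All 3 were called in all 6 libraries.

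Some strong SMC1A sites at RUNX3 had no NIPBL or MED1 peak in any library. The element at chr1:25395251-25395687 had SMC1A folds of 18.3 and 19.8. The element at chr1:25224428-25225090 had folds of 16.4 and 18.7 and was picked after its values were seen, as the other SMC1A element without partners and with at least 10-fold enrichment in both replicates. These elements lie 170.2 kb apart in the window of 210.001 kb. All 31 and 19 NIPBL peaks of the window fall between them, as do 27 of 28 and 34 of 37 MED1 peaks and 30 of 34 and 42 of 45 SMC1A peaks. The like pair at RUNX1 lies 249.3 kb apart in 360.001 kb, and between it lay all NIPBL and MED1 peaks of that window. The pair at RUNX2 lies only 80.9 kb apart in 300.001 kb, and between it lay the NIPBL peak and neither of the MED1 peaks. A pair farther apart takes in more peaks by position alone, and these counts were not tested. Over the RUNX3 window, the 3 SMC1A elements without NIPBL or MED1 had a median fold of 16.4 and 18.7 and the 19 with either had 4.38 and 5.32. The third of the former was weak, with folds of 4.41 and 2.98. At RUNX1 the gap was smaller, with medians of 10.8 and 8.45 for 5 elements without and 5.36 and 4.70 for 5 with either. The same split over the whole lists is not given here, so the gap is not shown to be particular to RUNX3.

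**Figure D4:**
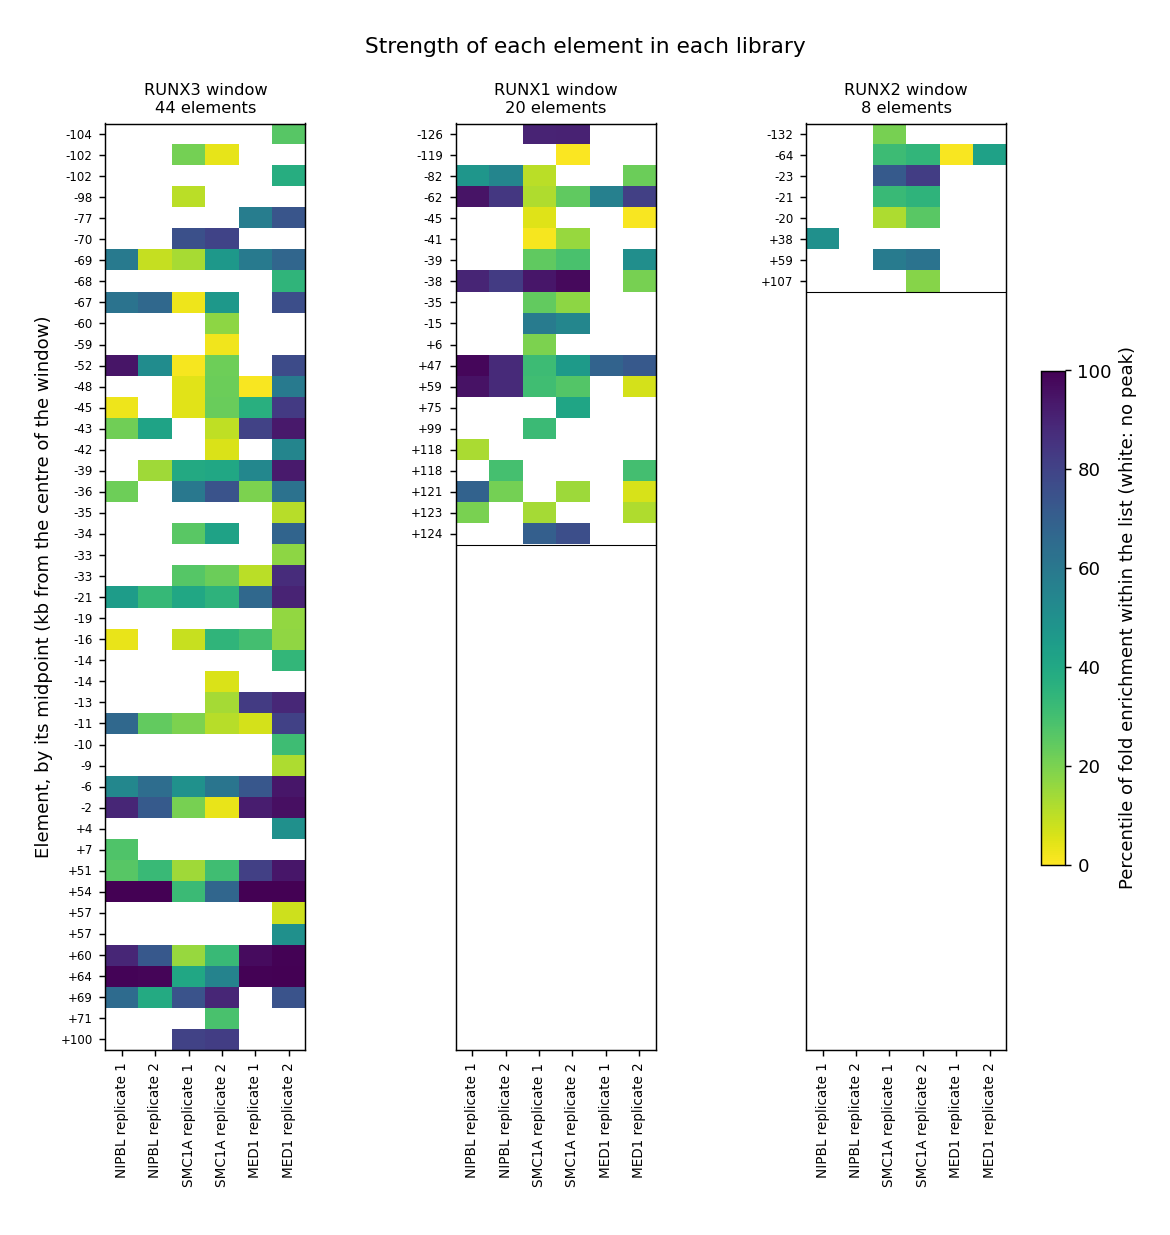
Each row is an element of a window, by its midpoint in kb from the window's centre, and each column is a library. Colour gives the percentile of the element's strongest peak within that library's list, and white means that no peak was called. The darkest RUNX3 rows in the NIPBL and MED1 columns are at +54 and +64 kb, while the dark SMC1A rows at −70 and +100 kb are white elsewhere.

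Across RUNX3 elements, the correlation of NIPBL strength was higher with the strength of MED1 replicate 2 than with SMC1A strength. MED1 replicate 1 was not set against another protein here. Between folds of NIPBL and MED1 replicate 2, Spearman's rho was 0.51 over 16 elements for NIPBL replicate 1 (Pearson's r of the log2 folds 0.77) and 0.70 over 14 for replicate 2 (r 0.84). Between same-numbered NIPBL and SMC1A replicates rho was 0.075 over 15 elements (r 0.042) and 0.21 over 14 (r 0.35). Between SMC1A and MED1 replicate 2 it was 0.30 over 19 elements (r 0.14) and 0.03 over 22 (r 0.16). Between replicates of a protein rho was 0.65 over 13 elements for NIPBL, 0.66 over 22 for SMC1A and 0.85 over 18 for MED1. The elements share a window and a control, some are neighbours in a cluster, and 2 or 3 of them carry the highest folds, so these values are descriptions with no test.

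**Figure D5:**
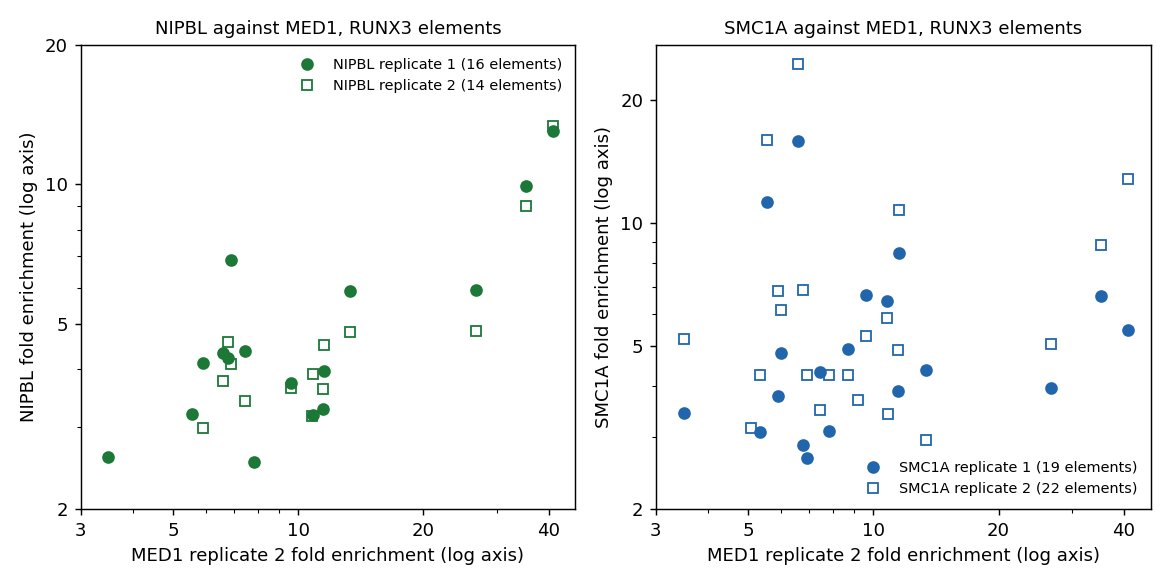
Fold enrichment of NIPBL (left) and SMC1A (right) against that of MED1 replicate 2 over the RUNX3 elements with a peak in both libraries, on log axes. In the left plot the 2 elements with the highest MED1 have the highest NIPBL. In the right plot SMC1A folds above 10 occur both at the highest MED1 fold and at MED1 folds of 5.55, 6.59 and 11.5.

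Summit distances at RUNX3 were taken within elements, whose median width of 608 bp limits them, and no value over the whole lists was computed. The median distance between strongest summits was 31 bp for the MED1 replicates (18 of 18 within 200 bp), 34 bp for SMC1A (16 of 22) and 119 bp for NIPBL (10 of 13). Between NIPBL replicate 1 and MED1 replicate 2 it was 80 bp (14 of 16 within 200 bp). Between SMC1A replicate 2 and MED1 replicate 2 it was 73.5 bp (17 of 22), and between NIPBL replicate 1 and SMC1A replicate 2 it was 117 bp (10 of 16).

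Regions found in both replicates give the stricter view. NIPBL had 16 such regions at RUNX3, 6 at RUNX1 and 0 at RUNX2, SMC1A had 28, 10 and 5, and MED1 had 18, 2 and 1. Of the 16 NIPBL regions at RUNX3, 12 overlapped both an SMC1A and a MED1 region, where 47.8% of all 11635 NIPBL regions did. A further 3 overlapped SMC1A only (14.6% of all), 1 overlapped MED1 only (22.4%) and 0 overlapped neither (15.2%). The count of 12 depended on the lists: it became 22 without NIPBL replicate 2, 26 with regions of either replicate, 6 with −log10 q of at least 5 and 0 when each list was kept to its 15357 peaks of highest fold.

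Of the 6 NIPBL regions at RUNX1, 2 overlapped both partners (47.8% of all NIPBL regions), 2 overlapped SMC1A only (14.6%), 0 overlapped MED1 only (22.4%) and 2 overlapped neither (15.2%). The count with both became 4 without MED1 replicate 1, 0 with lists of equal length and 7 with regions of either replicate. The split was not tested against that at RUNX3 or against the background.

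For SMC1A, 13 of 28 regions at RUNX3 overlapped both NIPBL and MED1, where 11.0% of all 51020 did, while 2 of 10 did at RUNX1 and 0 of 5 at RUNX2. Overlap with NIPBL only was seen in 3, 2 and 0 regions (3.28% of all), and with MED1 only in 8, 0 and 1 (6.43% of all). SMC1A regions with neither partner made up 4 of 28 at RUNX3, 6 of 10 at RUNX1 and 4 of 5 at RUNX2, against 79.2% of all. For MED1 at RUNX3, 9 of 18 regions overlapped both others (34.5% of all 15007), 1 overlapped NIPBL only (14.8%), 6 overlapped SMC1A only (17.7%) and 2 overlapped neither (33.0%). Both MED1 regions at RUNX1 overlapped both others, and the MED1 region at RUNX2 overlapped SMC1A only. The RUNX3 window thus held fewer isolated SMC1A regions than the list as a whole, as a description of 28 neighbouring regions.

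Overlap was also counted in bases. Of the bases under a NIPBL peak at RUNX3, 94.5% (replicate 1) and 98.4% (replicate 2) also lay under a peak of MED1 replicate 2, against 81.7% and 88.7% over the whole lists. At RUNX1 the shares were 48.2% and 60.2%. Under MED1 replicate 1, the shorter list, the shares were 64.5% and 80.2% at RUNX3 and 11.2% and 15.9% at RUNX1, against 48.7% and 59.2% over the whole lists. In the other direction, 35.3% and 26.9% of the MED1 replicate 2 bases at RUNX3 lay under NIPBL replicates 1 and 2, against 26.3% and 18.5% of the whole list, and at RUNX1 57.6% and 51.3% did. Of the MED1 replicate 1 bases, 53.9% and 49.1% lay under NIPBL replicates 1 and 2 at RUNX3, against 50.4% and 39.8% of the whole list. At RUNX1 82.5% and 83.6% did. With either MED1 library, the overlap at RUNX1 was thus smaller than at RUNX3 as a share of NIPBL and larger as a share of MED1. Peaks of MED1 replicate 1 held only 530 bases at RUNX1, against 3911 and 2789 for NIPBL, which caps its share of NIPBL there. The shares under MED1 replicate 1 therefore do not show that the proteins coincide less at RUNX1. Peaks of MED1 replicate 2 held 3275 bases there, so that cap does not account for its shares. Its 48.2% and 60.2% of NIPBL bases lay below the 81.7% and 88.7% of the whole lists. The share of its own bases under NIPBL went the other way, and neither difference was tested.

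Recurrence between replicates is given beside that of the whole list. For NIPBL, 19 of 31 peaks of replicate 1 overlapped a peak of replicate 2 (55.6% of the whole list did) and 16 of 19 did in reverse (79.3%). For SMC1A these counts were 32 of 34 (92.0%) and 29 of 45 (75.6%). For MED1 they were 28 of 28 (99.0%) and 18 of 37 (33.5%).

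RUNX1 held 20 elements in its 360.001 kb, spread over 10 clusters. Of these, 2 were called in all 6 libraries, 2 in 5, 2 in 4, 2 in 3, 7 in 2 and 5 in 1 library. The lists held 9 and 7 peaks for NIPBL, 17 and 14 for SMC1A, and 2 and 12 for MED1.

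The few NIPBL peaks at RUNX1 were strong for their list. The median percentile of fold enrichment was 68.5 and 82.5 for NIPBL at RUNX1 and 42.7 and 41.95 at RUNX3. The element at chr21:36346521-36347082 had NIPBL folds of 8.64 and 5.88 (ranks 384 and 1817), SMC1A folds of 5.46 and 6.59 and MED1 folds of 4.40 and 6.37. The other element in all 6 libraries, chr21:36237789-36238664, had NIPBL folds of 6.92 and 5.50, SMC1A folds of 3.69 and 4.41 and MED1 folds of 4.0 and 7.49. At chr21:36359101-36359792 NIPBL had folds of 7.0 and 5.89 (ranks 1083 and 1802), the second highest at RUNX1 in replicate 1 and the highest in replicate 2, where SMC1A had 5.36 and 4.60 and MED1 had 3.05 in replicate 2 and no peak in replicate 1.

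The strongest cohesin site of the 3 windows was at RUNX1. The element at chr21:36261407-36262871 had SMC1A folds of 27.3 and 34.8 (ranks 3383 and 1851), above the highest SMC1A folds at RUNX3 (18.3 and 24.5) and RUNX2 (14.9 and 19.8). It also had NIPBL folds of 5.94 and 5.40, while MED1 had 3.65 in replicate 2 and no peak in replicate 1. The next SMC1A element, chr21:36173717-36174283, had folds of 23.5 and 25.4 and no peak of NIPBL or MED1. The best SMC1A cluster at RUNX1 (chr21:36258408-36265143, 4 regions) ranked 441 of 33146 in the genome. The MED1 clusters, each a single region, ranked 8781 and 9122 of 9228.

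At RUNX1, 6 of 9 and 6 of 7 NIPBL peaks recurred in the other replicate (55.6% and 79.3% of the whole lists), 12 of 17 and 11 of 14 SMC1A peaks (92.0% and 75.6%), and 2 of 2 and 2 of 12 MED1 peaks (99.0% and 33.5%). Most peaks of MED1 replicate 2 were missing from replicate 1 over the whole list as well as here. The highest MED1 fold at RUNX1 was 4.40 in replicate 1 and 7.49 in replicate 2, against 19.7 and 41.0 at RUNX3.

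RUNX2 held 8 elements, of which 0 were called in all 6 libraries, 1 in 4, 4 in 2 and 3 in 1 library. RefSeq places SUPT3H, a subunit gene of a chromatin-modifying complex, across RUNX2, so peaks in this window cannot be assigned to one of the genes. The lists held 1 and 0 peaks for NIPBL, 6 and 7 for SMC1A, and 1 and 1 for MED1. The NIPBL peak at chr6:45447710-45447909 had a fold of 3.87, was as narrow as the lists allow at 200 bp, and was not seen in replicate 2.

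Of the 5 SMC1A regions found in both replicates at RUNX2, 4 had neither partner, a share close to the 79.2% of all SMC1A regions, and 1 carried MED1. SMC1A folds were 14.9 and 19.8 at chr6:45387137-45387825 and 10.8 and 10.9 at chr6:45468678-45469106, with no peak of another protein. The element at chr6:45344874-45346277 had SMC1A folds of 5.41 and 5.21 and the window's MED1 peaks, with folds of 2.31 and 4.49. Of the peaks at RUNX2, 5 of 6 and 5 of 7 recurred for SMC1A and 1 of 1 in each direction for MED1.

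The files give no read totals, but the number of fragments at a summit can be solved from a peak's fold and p-value. Over the RUNX3 peaks that could be solved, the lowest summit held 16 and 18 fragments in NIPBL, 11 and 11 in SMC1A, and 18 and 14 in MED1, and the medians lay between 25.5 and 29. At RUNX1 the lowest were 17 and 15 in NIPBL, 11 and 13 in SMC1A, and 21 and 14 in MED1. The strongest summit of the 3 windows held 245 fragments in MED1, 163 in SMC1A and 97 in NIPBL. The lists hold called peaks only, so the absence of a NIPBL or MED1 peak at RUNX2 or at a cohesin site does not show that the protein was absent.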

How the data were processed

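Peak lists of 6 ChIP-seq libraries were used, 2 for each of NIPBL, SMC1A and MED1. The submitters' processing notes name the hg19 build with MACS2 2.1.0, BWA 0.7.12 and Trimmomatic 0.33. The sources used here do not give their settings. The authors, per the labels, called each library alone against a pool of both whole cell extracts. The deposited lists give a score, a fold enrichment (linear ratio), and −log10 p and −log10 q values per peak. The deposited score was not used. The files hold no read totals.

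Positions were written 1-based, and chromosomes 1 to 22 and X were used. The covered share is the percent of a window's bases under a peak. Percentiles and ranks of fold enrichment are within a list. Elements merge overlapping peaks of all 6 libraries, and a region merges a protein's replicate peaks and is found in both. Sharing needed an overlap of 1 bp. Clusters join neighbours at most 12.5 kb apart. Fragments at a summit were solved from the fold and the p-value under MACS2's formulas, and on 500 simulated peaks 99.4% were recovered. Windows were compared by an exact sign-flip permutation test over libraries and proteins by an exact permutation test, both two-sided, with Benjamini-Hochberg adjustment over 3 comparisons. Scripts used Python 3.11.15, numpy 2.4.6, pandas 2.3.3, scipy 1.17.1 and matplotlib 3.10.9.

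Elements named are, per window, up to 6 called in all 6 libraries by mean percentile, and per protein the 2 strongest found in both replicates. The members, windows and lists were chosen with earlier results of these data known. An hg19 gene annotation and genome were not used here, so elements carry no gene annotation or sequence, a planned list of cofactor genes and a search for genes of like pattern were not run, and gene names and promoters came from RefSeq tables of GRCh38.p14, in which all 3 genes were matched. Alternatives were a −log10 q minimum of 5, equal list lengths (15357 peaks), windows trimmed by 20 kb, peaks per 100 kb, regions of either replicate, an overlap of 50%, the replicate block and leaving out each library.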

Additional observations from a re-analysis of the deposited data

Results flagged for a closer look

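The difference between RUNX3 and RUNX2 in the median percentile of peak strength pointed in opposite directions for cohesin and Mediator. RUNX3 minus RUNX2 was −11.0 and −11.6 percentile points in SMC1A replicates 1 and 2, and 54.6 and 25.3 points in MED1 replicates 1 and 2. Both libraries of each protein thus moved the same way, and the difference between the proteins was not tested. The RUNX2 value is that of a single peak in each MED1 library and of 6 and 7 peaks in the SMC1A libraries.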

How the results depend on the processing

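The covered share was higher at RUNX3 than at RUNX1 and RUNX2 under every alternative that was run. Leaving out each library in turn gave 6.96 to 9.84 points for RUNX3 minus RUNX1, 7.75 to 10.6 for RUNX3 minus RUNX2 and 0.645 to 0.862 for RUNX1 minus RUNX2, each with an exact p of 0.0625, the smallest that 5 libraries allow. RUNX1 minus RUNX2 was 0.506 with −log10 q of at least 5 (exact p = 0.0625). It was positive in 5 of 6 libraries, all but MED1 replicate 2, and the cause was not tested. MED1 minus SMC1A at RUNX3 turned to −3.33 as peaks per 100 kb, where a wide peak counts like a narrow one, and ranged from −0.439 to 10.6 with a library left out, the lowest without MED1 replicate 2. With equal numbers of top peaks the differences were 5.69 for RUNX3 minus RUNX1, 6.10 for RUNX3 minus RUNX2 and 0.414 for RUNX1 minus RUNX2, and MED1 minus SMC1A was 11.3, −0.263 and −0.109 at RUNX3, RUNX1 and RUNX2. The 12 NIPBL regions with both partners at RUNX3 became 6 with −log10 q of at least 5, 0 with equal numbers of top peaks by fold in each list, and 26 with regions of either replicate, and ranged from 12 to 22 with a library left out. The 2 at RUNX1 became 0 with equal numbers of top peaks and 7 with regions of either replicate, and ranged from 2 to 4. RUNX2 had 0 under all alternatives run. With the replicate number as a block (replicate block), MED1 minus SMC1A was 5.08 at RUNX3, −1.34 at RUNX1 and −0.555 at RUNX2, each with an exact p of 0.5, the smallest that 2 pairs allow. The numbers are not said to mark a shared culture or day. The lowest solved summits of a list in the windows held 11 to 18 fragments, and how depth moves the calls was not tested.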
